A study of Mus musculus with 4 samples.

Results

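Ccl5, Serpina3g, Serpina3f, Klrk1 and Ltb are 5 genes of the 27998 whose RNA was measured in single bone marrow monocytes of young and old mice. They were picked as genes of a lymphoid type that go with AW112010, a long non-coding RNA, so they were chosen by their level in cells with against cells without AW112010 RNA, and that difference is given here without a test. The study asked how monocytes and their progenitors change with age, and sorted Ly6Chi monocytes (Ly6G-CD11b+CD115+Ly6Chi) from bone marrow for droplet sequencing of RNA together with antibody tags. All mice were wild-type C57BL/6 with no other treatment given in the labels. There were 5 young males of 14 weeks, 5 old males of 27 months, 5 young females of 15 weeks and 5 old females of 26.5 months. The 10 mice of each sex carried 1 hashtag antibody each and were pooled into 1 library per sex, so sex, experiment and library cannot be told apart. Mice are numbered within their group.

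CCL5 is a chemokine that T cells and natural killer (NK) cells release and that draws leukocytes carrying receptors such as CCR1. Klrk1 encodes NKG2D, an activating receptor best known from NK cells and CD8 T cells, which signals through the adaptors DAP10 (Hcst) and DAP12 (Tyrobp). Ltb encodes lymphotoxin beta, which anchors lymphotoxin alpha at the lymphocyte surface and is read by the lymphotoxin beta receptor (Ltbr) on stromal and myeloid cells. Serpina3g and Serpina3f belong to an expanded mouse cluster of protease inhibitor genes, and Serpina3g is known as an interferon-gamma-induced inhibitor of cathepsins inside the cell. In the marrow Ccl5, Klrk1 and Ltb are usually read as signs of T, NK or B cells rather than of monocytes.

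In the mouse genome build GRCm38, Serpina3f (ENSMUSG00000066363) lies at chr12:104214544-104221129 and Serpina3g (ENSMUSG00000041481) at chr12:104236245-104241939, both on the plus strand and 15115 bases apart. Ccl5 (ENSMUSG00000035042) lies at chr11:83525778-83530518 on the minus strand, Klrk1 (ENSMUSG00000030149) at chr6:129610323-129623864 on the minus strand and Ltb (ENSMUSG00000024399) at chr17:35194439-35196320 on the plus strand. AW112010 (ENSMUSG00000075010), annotated as a long intergenic non-coding RNA, lies at chr19:11047612-11055808 on the minus strand. Of the 31-base words in the last 500 bases of Serpina3g, where this 3' chemistry reads, 35.5% also occurred in another gene, and 21.4% occurred in Serpina3f. For Serpina3f these shares were 13.7% and 10.3%, for Ccl5 0.558% occurred elsewhere, and for Klrk1 and Ltb 0%. The split of reads between Serpina3g and Serpina3f is therefore uncertain.

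The promoters of Serpina3f, Serpina3g and Ltb are shown because each holds the letters TTCNNNGAA, the gamma-activated sequence (GAS) known from interferon-gamma-induced genes, and interferon-gamma genes enter the comparisons below. Each window runs from 250 bases before to 50 bases after the RefSeq start in GRCm38.p6, on the plus strand, with the GAS in capitals.
Serpina3f, chr12:104214294-104214593: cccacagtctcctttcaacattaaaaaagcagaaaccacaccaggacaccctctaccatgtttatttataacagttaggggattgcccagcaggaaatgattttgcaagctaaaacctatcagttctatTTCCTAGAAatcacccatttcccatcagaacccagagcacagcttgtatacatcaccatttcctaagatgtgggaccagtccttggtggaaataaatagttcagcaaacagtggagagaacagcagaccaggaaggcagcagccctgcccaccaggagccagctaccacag
Serpina3g, chr12:104235897-104236196: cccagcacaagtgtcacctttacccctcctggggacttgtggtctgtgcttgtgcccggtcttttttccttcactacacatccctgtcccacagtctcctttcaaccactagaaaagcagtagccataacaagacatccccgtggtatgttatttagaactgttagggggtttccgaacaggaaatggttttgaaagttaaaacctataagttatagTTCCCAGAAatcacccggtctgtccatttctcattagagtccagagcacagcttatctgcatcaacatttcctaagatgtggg
Ltb, chr17:35194257-35194556: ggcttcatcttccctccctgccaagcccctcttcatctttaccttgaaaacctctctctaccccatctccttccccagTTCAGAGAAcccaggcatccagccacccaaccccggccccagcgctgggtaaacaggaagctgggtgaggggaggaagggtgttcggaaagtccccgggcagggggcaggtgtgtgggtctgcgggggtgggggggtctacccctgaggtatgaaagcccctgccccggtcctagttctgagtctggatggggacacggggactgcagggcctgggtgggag
The GAS began 121 bases before the RefSeq start of Serpina3f, 33 bases before that of Serpina3g and 172 bases before that of Ltb. RefSeq starts can differ from the gene starts given above. A second RefSeq start of Serpina3f (window chr12:104214383-104214682) put the same GAS at -210. Among 32851 mouse promoter windows of this length, 8.30% held a GAS on either strand, 8.46% a kappa B motif and 3.44% an interferon-stimulated response element (GAAANNGAAA). A kappa B motif, which overlapped no GAS, began at -85 in Serpina3g, at -87 in Ltb and at -70 in AW112010. The AW112010 window (chr19:11050517-11050816) lies inside the gene as placed above, and not at its 5' end. The Klrk1 window held none of these letters, and no promoter of Ccl5 is shown. A match of letters is a description and not a measured binding site.

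After filtering there were 6641 female and 1227 male cells (7868 in all), and no barcode occurred in both libraries. Each mouse gave 239 to 1712 cells in the females and 49 to 206 in the males. The median depth of a mouse's cells ran from 8281 to 8841 unique molecular identifiers (UMIs, counted RNA molecules) for the young and from 9681.5 to 13262.5 for the old females. Every old female thus had more UMIs per cell by the median than every young one. Depth here means UMIs per cell. Old and young mice of a sex shared a library, and the cause of this difference was not tested. In males the medians ran from 3799 to 4455.5 for the young and from 4489.5 to 8805.5 for the old, so every old male was deeper too. In 69 female cells and 3 male cells at least 1 UMI of Cd3d, Cd3e or Cd3g, the CD3 chains of the T cell receptor, was found, and these CD3-positive cells were set apart. They made up 0.950% ± 0.421 of the cells of old females and 0.996% ± 0.574 of young females (SD, n = 5 each, two-sided exact permutation p = 0.905), and 0.408% ± 0.913 against 0.306% ± 0.421 in males (exact p = 1).

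The 5 genes divided by where their RNA lay. Most Ccl5 and Ltb RNA of the females came from the few CD3-positive cells, while most Klrk1, Serpina3g and Serpina3f RNA came from cells without CD3. Ccl5 had 1360 UMIs in the female cells, and 1146 of them (84.3%) were in the 69 CD3-positive cells. For Ltb it was 164 of 304 UMIs (53.9%), for Klrk1 133 of 842 (15.8%), for Serpina3g 40 of 454 (8.81%) and for Serpina3f 3 of 56 (5.36%). Every gene had a higher level in the CD3-positive cells in CPM, UMIs of the gene scaled to a common total of the cells' UMIs, with 1275 against 2.70 for Ccl5, 182 against 1.77 for Ltb, 148 against 8.95 for Klrk1, 44.5 against 5.23 for Serpina3g and 3.34 against 0.669 for Serpina3f.

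Ccl5 was found in 44.9% of CD3-positive cells (95% exact binomial interval 32.9 to 57.4) and in 2.42% of CD3-negative cells (2.06 to 2.82), and a cell with any Ccl5 held 37.0 UMIs on average with CD3 and 1.35 without. Ltb was found in 52.2% against 1.95% and Klrk1 in 36.2% against 8.34%. Serpina3g was found in 26.1% against 2.85% of cells, and the cells that held it held 2.22 UMIs on average with CD3 and 2.21 without, of which 38.9% and 68.4% held exactly 1, with 1 CD3-negative cell at 36. Median depth was 11980 UMIs in the CD3-positive and 9561 in the CD3-negative cells, and intervals cover counting error only. Of the 69 CD3-positive cells 47.8% held exactly 1 CD3 UMI, and how many of them were T cells was not tested.

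**Figure D1:**
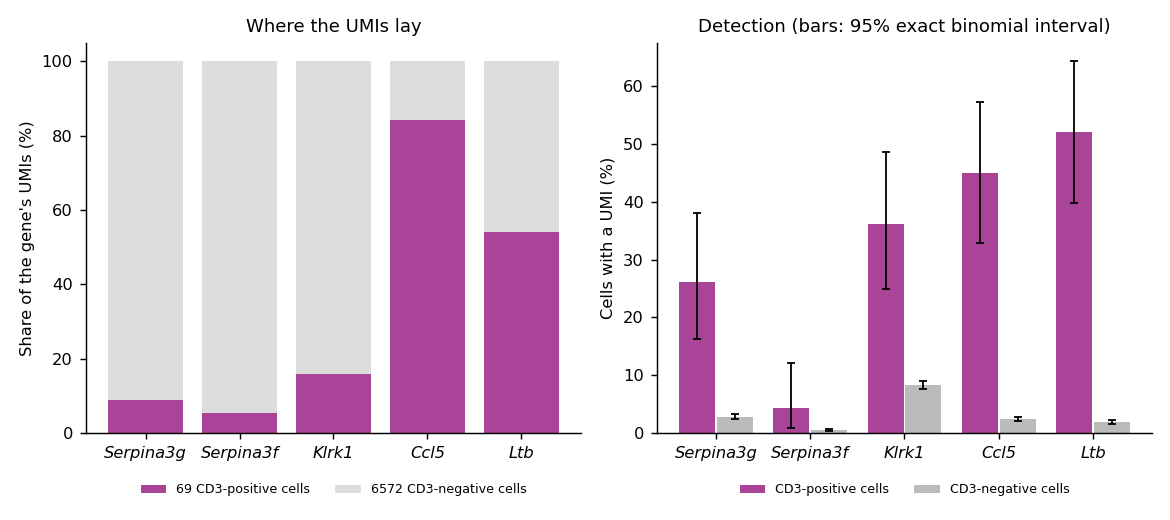
Left, share of each gene's female UMIs (percent) that lay in the 69 CD3-positive and the 6572 CD3-negative cells. Right, share of cells with at least 1 UMI in both classes, with 95% exact binomial intervals; Ccl5 has 84.3% of its UMIs in CD3-positive cells and Serpina3g 8.81%.

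RNA set free by burst cells can give single UMIs in cells that do not express a gene, and the ratios between the genes are therefore given for both classes of cells. Per UMI of Ccl5 there were 0.143 UMIs of Ltb in the CD3-positive and 0.654 in the CD3-negative cells. For Klrk1 these ratios were 0.116 and 3.31, for Serpina3g 0.0349 and 1.93, and for Serpina3f 0.00262 and 0.248. Of the CD3-negative cells with Ccl5, 92.5% held exactly 1 UMI of it, and of those with Ltb 91.4%. The shares with exactly 1 UMI were 80.3% for Klrk1, 72.2% for Serpina3f and 68.4% for Serpina3g. In the 888 female barcodes without a hashtag call, at a median of 1920 UMIs, Klrk1 was at 9.84 CPM and Serpina3g at 4.68, beside 8.95 and 5.23 in the CD3-negative cells. Serpina3f was at 0.468 beside 0.669. Ccl5 was at 28.6 and Ltb at 6.09, beside 2.70 and 1.77, so these 2 were higher there. Of these barcodes 27 (3.04%) held a CD3 UMI and were not set apart. How much of the RNA of any of the 5 genes in CD3-negative cells was free RNA was not tested.

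Nearly all CD3-negative female cells held RNA known from monocytes, and so did those that held these genes. The 548 Klrk1, 187 Serpina3g, 159 Ccl5, 128 Ltb and 36 Serpina3f cells all held Lyz2, the lysozyme of myeloid cells. Ly6c2, which encodes the sorted Ly6C, was found in 98.7% of the Ccl5 cells, 99.5% of the Serpina3g cells and 100% of the others. Among the 6024 cells without Klrk1, Lyz2 was found in 100% and Ly6c2 in 99.5%. Detection of these 2 genes thus does not set the cells with a member apart. None of the cells with a member held 2 or more of the other T cell genes listed. At least 2 NK cell genes were found in 2 of the 548 Klrk1 cells (0.365%) and in 1 of the 6024 cells without Klrk1 (0.0166%). At least 2 B cell genes were found in 2 of the 128 Ltb cells (1.56%) and in 8 of the 6444 cells without Ltb (0.124%). They were also found in 1 Klrk1 cell and in no cell with another member. These shares rest on few cells, and the differences were not tested. So in females most Ccl5 and Ltb RNA lay in cells with a CD3 UMI, and whether these cells were lymphoid was not tested. In males the 3 CD3-positive cells held 1 of 9 Ccl5 UMIs (11.1%) and 4 of 38 Ltb UMIs (10.5%), so most lay in CD3-negative cells. Most female UMIs of Klrk1, Serpina3g and Serpina3f lay in CD3-negative cells, of which there were 6572 beside 69 CD3-positive cells. In CPM all 5 genes were higher in the female CD3-positive cells, so the place of most UMIs does not decide whether a lymphoid label holds for Klrk1, Serpina3g and Serpina3f. In the 4762 female cells without any UMI of a T, NK or B cell marker, Klrk1 was still found in 7.27%, Serpina3g in 2.60%, Ccl5 in 2.29%, Ltb in 1.97% and Serpina3f in 0.525% of cells.

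Ltb and Ccl5 cells, pooled over mice, held more neutrophil RNA. The summed level of the neutrophil list was 1275 CPM in Ltb cells against 173 in the other CD3-negative female cells, and 961 against 170 for Ccl5, while it was 47.3 against 209 for Klrk1 and 72.2 against 196 for Serpina3g. Of the UMIs of the neutrophil gene Ngp, 99.1% in the Ltb cells and 99.8% in the Ccl5 cells came from 1 mouse, and these sums were not tested. In males the 30 CD3-negative cells with Ltb had 18479 against 967 for the neutrophil list and 2448 against 112 for the basophil list, and Ly6c2 was found in 70% of them. Of the 15 male cells with at least 3 of 6 basophil genes, 6 (40%) held Ltb. The part of these other cell types in the Ltb and Ccl5 values was not tested. Doublets, which hold the RNA of at least 2 cells, were removed in females by their hashtags, which cannot mark 2 cells of 1 mouse.

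The question with age was whether the CD3-negative monocytes of old mice held these genes more often. In females Serpina3g did so most clearly. Serpina3f had a higher share in old females as measured, with far fewer molecules. It did not pass the exact permutation test with cells thinned to 5000 or 2000 UMIs. The groups overlapped for Serpina3f by 1 mouse, and for Klrk1, Ccl5 and Ltb. In bulk sums per mouse, fewer cells with a gene and less RNA per cell cannot be told apart. The share of cells is therefore given for every gene, and the CPM of each mouse for Serpina3g in females.

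Serpina3g was found in 15.99%, 4.15%, 2.41%, 2.51% and 6.70% of the cells of old females 1 to 5, and in 1.42%, 0.638%, 0.837%, 1.24% and 1.32% of those of young females 1 to 5. The groups did not overlap, and old female 1 was far above the other old females. The means were 6.35% ± 5.66 and 1.09% ± 0.335 (SD, n = 5 each), with a two-sided exact permutation p of 0.00794, the smallest that 5 against 5 mice allow. In CPM the old females had 32.0, 4.30, 3.0, 4.32 and 7.16 and the young 1.55, 0.572, 0.735, 3.98 and 1.15. On this scale young female 4 lay above old female 3, so the groups overlapped.

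Serpina3f was found in 4.34%, 0.297%, 0.659%, 0.436% and 0.773% of the cells of the old females and in 0.177%, 0%, 0.418%, 0.177% and 0.146% of the young. The means were 1.30% ± 1.71 and 0.184% ± 0.150 (exact permutation p = 0.0159, n = 5 each), the groups overlapped by old female 2 alone, and 30 of the 53 UMIs came from old female 1. With any 1 young female left out the exact permutation p of Serpina3f rose to between 0.0714 and 0.151. Both Serpina3 genes, 2 of the 5, thus passed the exact permutation test upwards at p = 0.05, beside 36.1% of all 12548 genes tested in the same way, a background near the members' own share and one that moves with the greater depth of the old females.

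With every female cell thinned to 5000 UMIs, a setting chosen after seeing the data, the background fell to 5.34% of genes and Serpina3g alone of the 5 passed. Its share was then 2.76% ± 2.34 in old and 0.682% ± 0.172 in young females (exact permutation p = 0.00794, n = 5 each), with ranges of 1.14% to 6.61% and 0.433% to 0.910% that did not overlap. Serpina3f had an exact permutation p of 0.0873. At 2000 UMIs, where 4.52% of genes passed, Serpina3g was at 1.86% ± 2.18 against 0.178% ± 0.128 (exact permutation p = 0.0556, n = 5 each) and none of the 5 passed.

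Klrk1 was found in 20.3%, 10.4%, 6.70%, 6.86% and 10.8% of the cells of old females and in 7.79%, 6.17%, 6.69%, 7.39% and 8.48% of young. Old females 1, 2 and 5 were above every young female and old females 3 and 4 were among them, with means of 11.02% ± 5.55 and 7.30% ± 0.906 (exact permutation p = 0.127, n = 5 each). Leaving out old female 3 or old female 4 gave p = 0.0317 and p = 0.0397 in the exact permutation test. These were the old females with the lowest shares, so leaving out either raises the old mean by construction. The share of all genes that pass without them was not computed. By share both of these mice lay among the young, while in CPM old female 3 (6.36) lay below every young female (7.35 to 8.82). With each mouse left out in turn, the Klrk1 difference ran from 1.39 to 4.79 percentage points, beside 3.71 with all mice. Ccl5 was found in 2.98%, 2.37%, 2.31%, 2.51% and 1.80% of old and 2.30%, 1.91%, 3.35%, 3.13% and 0.877% of young females, ranges that lay within each other (2.39% ± 0.422 against 2.31% ± 0.996, exact permutation p = 0.881, n = 5 each). Ltb was found in 1.36%, 4.15%, 2.41%, 1.74% and 2.06% of old and 1.77%, 2.34%, 0.837%, 1.77% and 1.46% of young females, again overlapping (2.35% ± 1.08 against 1.64% ± 0.548, exact permutation p = 0.254, n = 5 each). AW112010 itself, the gene that chose the members, was found in 66.3% ± 14.0 of the CD3-negative cells of old and 32.2% ± 2.55 of young females.

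In males, where the old mice were also deeper, Serpina3g was seen in old mice alone. It was found in 0%, 4.31%, 8.08%, 0% and 5.36% of the cells of old males 1 to 5 and in 0 of the 699 cells of the 5 young males, which at their depth and for counting error over the pooled cells allows up to 0.429% of cells with a UMI, with 22 UMIs in all. Old males 1 and 4 were at 0 like every young male, so the groups overlapped (3.55% ± 3.52 against 0%, exact permutation p = 0.167, n = 5 each). Without either of these old males, which raises the old mean by construction, the exact permutation p was 0.0476. With each male left out in turn, the Serpina3g difference ran from 2.42 to 4.44 percentage points. Klrk1 was found in 3.40%, 16.4%, 3.03%, 6.25% and 8.93% of old and 2.26%, 3.73%, 5.00%, 7.09% and 3.31% of young males (exact permutation p = 0.254, n = 5 each), with old male 2 far above the rest. Ltb was found in 2.43%, 3.45%, 4.04%, 0% and 3.57% of old and 3.39%, 2.24%, 2.14%, 1.57% and 0.826% of young males (exact permutation p = 0.429, n = 5 each). Without old male 4, which was at 0, the exact permutation p was 0.0397, and this too raises the old mean by construction. The share of all genes that pass with a male left out was not computed. With each male left out in turn, the Ltb difference ran from 0.327 to 1.34 percentage points. CD3-negative cells with Ccl5 were 3 cells of old male 2 (2.59%) with 8 UMIs, all called doublets by HTODemux, and with HTODemux singlets the share was 0% in every male. None of the 5 genes passed the exact permutation test at p = 0.05 in males with all mice, where 16.9% of 10053 genes did upwards, and none with cells thinned to 2000 UMIs, where 3.38% did.

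**Figure D2:**
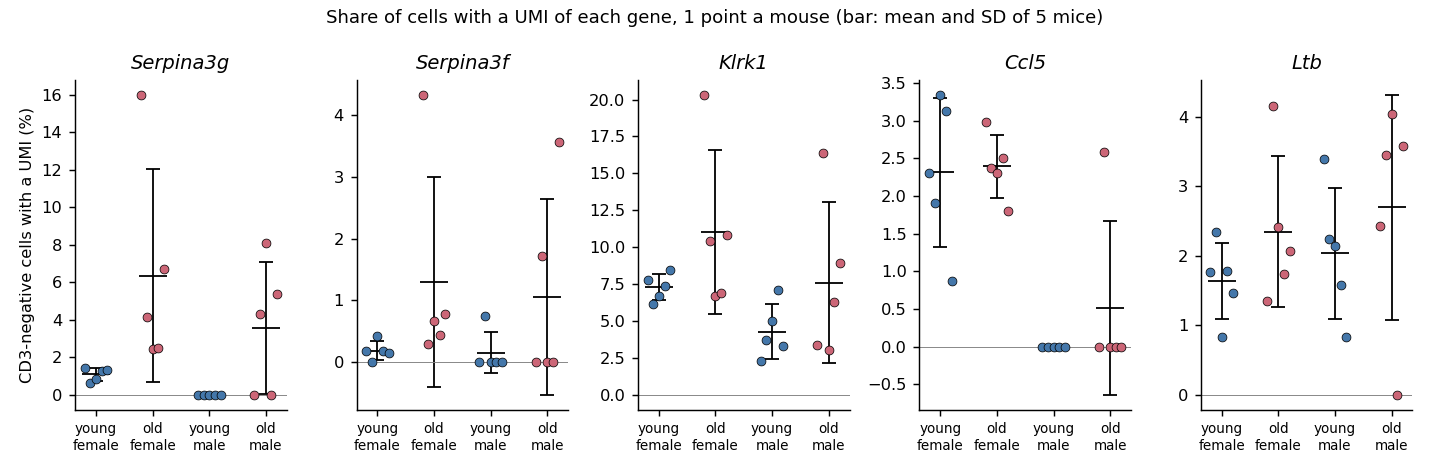
Share of CD3-negative cells with at least 1 UMI (percent) of each of the 5 genes, 1 point per mouse, in young and old females and males (5 mice a group), with the mean and SD as bars. Serpina3g was above 2.4% in every old female and below 1.5% in every young female; the other genes overlap between ages.

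A fit across all genes on the UMIs summed per mouse (edgeR quasi-likelihood, Benjamini-Hochberg adjusted over all genes) called 359 of 10033 genes in females (3.58%), 213 higher and 146 lower in old mice. Of the members, 3 passed the filter on low counts and none was called, with 1 at an unadjusted p under 0.05. Serpina3g had a log2 fold change of 2.06 ± 0.68 (SE, adjusted p = 0.124), Klrk1 of 0.24 ± 0.23 (adjusted p = 0.689) and Ccl5 of 0.15 ± 0.37 (adjusted p = 0.913). For Serpina3g the call depended on the setting. DESeq2, which called 391 of 10033 genes, gave 2.63 ± 0.82 (adjusted p = 0.0376). The edgeR fit without the filter, which called 401 of 16416 genes, gave 2.10 ± 0.55 (adjusted p = 0.0373). Without old female 1, which held 171 of its 414 UMIs, the edgeR value of Serpina3g fell to 1.04 ± 0.39 (adjusted p = 0.224). Without young female 4, in which 1 cell held 36 of its 74 UMIs, it was 3.11 (edgeR adjusted p = 0.0853).

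In males edgeR called 0 of 5664 genes (0%), with 630 at an unadjusted p under 0.05 and 20 called by DESeq2, and no member passed its filter. Without the filter, where 105 of 13148 genes were called, Serpina3g was called in males. Its edgeR adjusted p was 0.00546 against young males all at 0, for which no fold is given. The test of sex against age called 2 of 8838 genes (0.0226%) and neither member in it, Klrk1 at 0.26 ± 0.64 (SE, edgeR adjusted p = 0.989) nor Serpina3g (edgeR adjusted p = 0.944), so no member was shown to respond to age differently in the sexes.

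Serpina3g and Klrk1 had a higher share in the AW112010-positive than in the AW112010-negative cells of every female. These values chose the members and are given as a description. In females Serpina3g was found in 4.62% of AW112010-positive and 2.53% of AW112010-negative cells and Klrk1 in 10.9% against 7.41% (means of 10 mice). Both were higher in the positive cells of 10 of 10 mice, or of 8 and 9 of 10 with T, NK or B marker cells left out. Ccl5 was found in 2.82% against 2.06%, higher in 8 of 10 mice. Serpina3f was at 0.807% against 0.690%, higher in 4 mice and lower in 5, and Ltb at 1.96% against 1.95%, higher in 4 of 10. All 5 means were higher, as were those of 82.8% of all 12547 genes, and the AW112010-positive cells were also deeper with a median of 10750 against 8772.5 UMIs. These values leave out the CD3-positive cells, in which AW112010 itself was at 370 CPM, beside 102 in the CD3-negative female cells. With the CD3-positive cells included, Ltb was found in 3.08% against 1.98%, higher in 7 of 10 mice. Ccl5 was then found in 3.79% against 2.07%, higher in 10 of 10.

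In cells thinned to 5000 UMIs, where 46.5% of genes were higher, the shares were 2.84% against 0.937% for Serpina3g (10 of 10 mice), 5.30% against 3.62% for Klrk1 (9 of 10), 1.70% against 0.780% for Ccl5 (7 of 10) and 1.66% against 0.860% for Ltb (7 of 10). Ranked by the class difference in share as measured, thinned to 2000 and thinned to 5000 UMIs, Serpina3g stood at percentiles 64.6, 80.3 and 90.6 of all genes, Klrk1 at 81.8, 69.8 and 89.2, Ccl5 at 42.6, 90 and 81.9, and Ltb at 17.6, 69.4 and 80. Serpina3f stood at 23.1 as measured and 72.7 at 5000 UMIs, so the order of the members moved with the depth used. At 2000 UMIs, where 46% of genes were higher, Ccl5 was higher in 7, Klrk1 in 6 and Serpina3g in 4 of 10 mice. Across female cells with 0, 1, 2 to 3 and 4 or more AW112010 UMIs, Serpina3g was found in 2.53%, 3.07%, 4.02% and 8.99% of cells and Klrk1 in 7.41%, 9.18%, 12.6% and 14.9%. The median depths of these classes were 8772.5, 10428, 11806.5 and 10590 UMIs, the part of depth in these shares was not tested, and the highest class rests on 8 of the 10 mice. Ltb was found in 1.95%, 1.87%, 1.77% and 2.91% of these cells, with no steady order.

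In males Klrk1 was found in 7.60% of AW112010-positive and 4.19% of AW112010-negative cells, higher in 7 of 10 mice, and Serpina3g was higher in 3 mice and equal in 7. With HTODemux singlets Klrk1 was at 5.39% against 5.12%, higher in 4 and lower in 5 of 9 male mice. Of all genes in males 67.9% were higher in the positive cells, and 47.9% with cells thinned to 2000 UMIs.

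**Figure D3:**
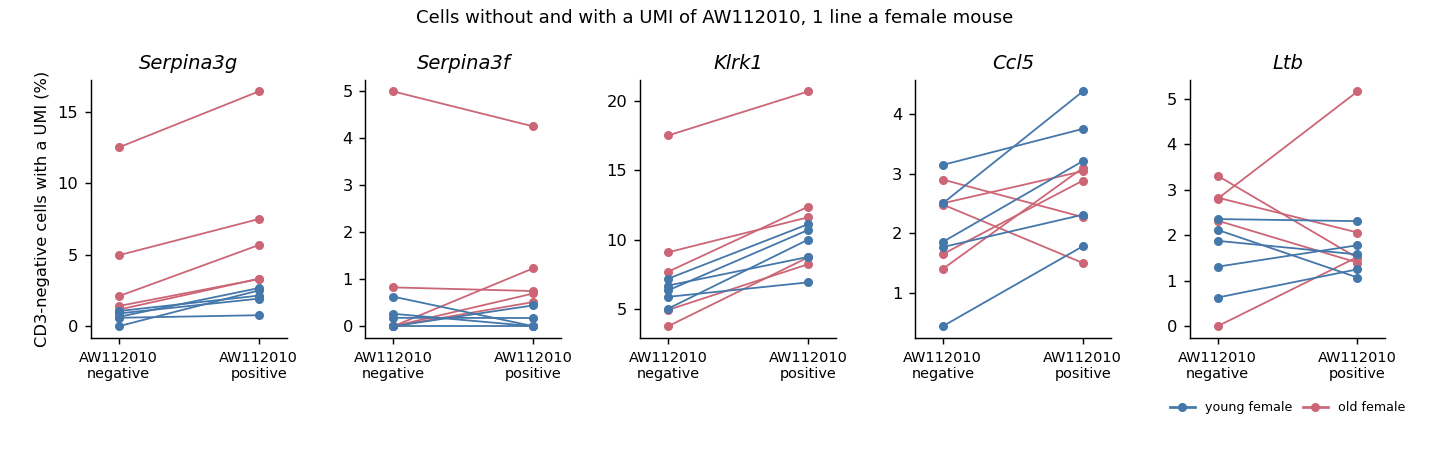
Share of CD3-negative cells with at least 1 UMI (percent) of each gene in AW112010-negative and AW112010-positive cells, 1 line per female mouse (5 old, 5 young). The lines of Serpina3g and Klrk1 rise in 10 of 10 mice, and those of Ltb in 4 of 10.

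Age was then compared within the AW112010 classes, since old females held far more AW112010-positive cells. In AW112010-negative cells Serpina3g was found in 4.43% ± 4.76 of the cells of old and 0.639% ± 0.404 of young females (SD, n = 5 each), and in AW112010-positive cells in 7.24% ± 5.42 against 2.00% ± 0.747. Old female 1 had 5 cells with Serpina3g among only 40 negative cells, and without it, a setting chosen after seeing the data, the old means were 2.41% ± 1.75 in the negative and 4.94% ± 2.03 in the positive cells. The edgeR fit called 171 of 9464 genes (1.81%) in the negative and 175 of 9390 (1.86%) in the positive cells, and no member among those that passed its filter. In the positive cells Serpina3g had a log2 fold change of 1.29 ± 0.63 (SE, edgeR adjusted p = 0.457), Klrk1 of 0.14 ± 0.24 (edgeR adjusted p = 0.919) and Ccl5 of -0.18 ± 0.44 (edgeR adjusted p = 0.964), and in the negative cells Klrk1 had -0.21 ± 0.20 (edgeR adjusted p = 0.702). The test of whether the age effect differed between the classes called 1 of 10131 genes (0.00987%) and none of the 5, with Serpina3g at -1.18 ± 0.46 (edgeR adjusted p = 0.404). In males the same fits called 2 of 4482 genes (0.0446%) in the negative cells, 0 of 2727 (0%) in the positive cells with 172 at an unadjusted p under 0.05, and 2 of 4194 (0.0477%) for the difference, and no member passed their filters.

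The cells with and without each gene were compared across all genes within mice, over the mice with at least 5 such CD3-negative cells, which were 8 of the 10 females for Serpina3g, 10 for Klrk1 and Ccl5, and 9 for Ltb. Only 2 had them for Serpina3f, which could not be fitted. Serpina3g and Klrk1 cells had higher interferon-gamma genes and lower Ly6C-high monocyte genes, Ltb cells had higher B cell genes and lower granule genes, and few genes were called for Ccl5 cells. Mice are the replicates in these fits, the gene that defines the cells is itself 1 of the genes called higher in each, and each fold change is log2 of cells with over cells without the gene.

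Serpina3g cells differed in 725 of 9955 genes (7.28%), 366 higher and 359 lower. Their median depth was 11653 UMIs against 9527 in cells without Serpina3g. Of the 19 interferon-gamma genes tested 16 were higher and none lower, with a list median of 1.03 beside -0.03 over all genes. The largest were the chemokines Cxcl9 (5.12 ± 0.29, SE) and Cxcl10 (4.48 ± 0.20), the immunity-related GTPase Iigp1 (2.61) and Socs1 (2.35), a brake on cytokine signalling, although 89.3% of the Iigp1 UMIs in Serpina3g cells came from 1 mouse. None of these genes was higher in all 8 mice. With cells holding a T, NK or B cell marker left out 14 of 19 were higher and 285 genes were called in all, and without old female 1 it was 14 of 19 and 513. Among called genes higher in all 8 mice the 5 with the largest change were the guanylate-binding proteins Gbp5 (2.22 ± 0.26, SE, 30.7 against 7.05 CPM) and Gbp2 (119 against 36.8), the tetraspanin Cd81 (45.8 against 15.9), Ms4a3 (298 against 124) and Mpo (1990 against 794).

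Serpina3g cells also had higher genes of both monocyte subsets listed. The neutrophil-like monocyte (NeuMo) granule genes Mpo (1.37 ± 0.07, SE), Ctsg (1.14), Elane (0.98) and Prtn3 (0.91) were higher, 4 of 4 tested, each in 8 of 8 mice. Of the dendritic-like monocyte (DCMo) genes 4 of 5 were higher, the MHC class II genes H2-Eb1 (1.18), H2-Ab1 (1.07) and H2-Aa (1.03) and their invariant chain Cd74 (0.76). Of the Ly6C-high monocyte genes 6 of 8 were lower, among them fibronectin Fn1 (-0.71), the chitinase-like Chil3 (-0.64), the CD11b integrin Itgam (-0.45) and the coagulation factor F13a1 (-0.43).

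Of the 9 proteases that serpins could meet, 3 were higher in Serpina3g cells, which were Prtn3, Elane and Ctsg of the NeuMo list, and cathepsin H (Ctsh, -0.31) was lower. Of 4 other serpins Serpinb10 was lower (-0.73). Of 10 CCL5 receptors and other chemokines 4 were higher, Cxcl9 and Cxcl10 as above, Cxcl16 (2.60) and Ccl2 (1.14), and 3 were lower, among them Ccr1 (-0.77), a receptor of CCL5. Cxcl16, like Cxcl9 and Cxcl10, was not higher in every mouse. Serpina3f itself was higher by 4.51 ± 0.59 (SE, edgeR adjusted p = 4.24e-08), and the part of the 3' sequence that the pair shares was not tested. Ccl5 was higher in the same cells by 2.49 ± 0.50 (edgeR adjusted p = 0.000307) and Klrk1 by 1.06 ± 0.27 (edgeR adjusted p = 0.00673). Only 8 CD3-negative female cells held both Serpina3g and Ccl5. Neither Ccl5 nor Serpina3f was higher in every mouse.

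Klrk1 cells differed in 1379 of 9548 genes (14.4%), 727 higher and 652 lower. Their median depth was 13876.5 UMIs against 9314 in cells without Klrk1. Of the 19 interferon-gamma genes 15 were higher and none lower, with Cxcl10 at 2.28 ± 0.24 (SE), Cxcl9 at 2.21 but higher in 4 of 10 mice alone, Iigp1 at 1.44 and Socs1 at 1.32, and 15 of 19 were still higher with T, NK or B marker cells left out. Cxcl10, Iigp1 and Socs1 were not higher in every mouse either. Among called genes higher in all 10 mice the largest were Isg15 (1.25, 131 against 55.6 CPM), the NK receptor family gene Slamf7 (1.22), the activation marker Cd69 (1.11), Kctd14 (0.99) and Usp18 (0.97), the enzyme that takes ISG15 off its targets. Serpina3g was higher by 1.15 ± 0.23 (SE, edgeR adjusted p = 0.000392), though not in every mouse, and 40 CD3-negative female cells held both genes.

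All 5 DCMo genes were higher in Klrk1 cells, led by the lectin Cd209a (1.37 ± 0.11, SE), and so were 3 of 3 conventional dendritic cell genes, Clec9a (1.67), Flt3 (0.90) and Dpp4 (0.76), and 3 of 4 NeuMo genes. Cd209a and Clec9a were not higher in every mouse. Of the Ly6C-high monocyte genes 7 of 8 were lower, with Itgam (-0.76), Fn1 (-0.75) and Lyz2 (-0.51) higher in 0 of 10 mice. All 4 neutrophil genes tested were lower, among them Ngp (-4.34) and Camp (-3.82). Of 8 genes of the NKG2D list the NK receptor gene Klrd1 (CD94) was higher by 2.03 ± 0.43 (SE), in 9 of 10 mice, and the kinase Syk (-0.33) and the DAP12 gene Tyrobp (-0.22) were lower.

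Ccl5 cells differed in 17 of 9703 genes (0.175%), 3 higher and 14 lower, and Fn1 (-0.48) and Lyz2 (-0.34) were among the lower. None of the 19 interferon-gamma genes was called, with Cxcl10 at 1.39 ± 0.34 (SE, edgeR adjusted p = 0.0726) and Cxcl9 at 2.53 ± 0.62 (edgeR adjusted p = 0.0805), and without old female 1 it was 3 of 17. Its receptor gene Ccr1 (-0.06 ± 0.14, SE) was not called.

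Ltb cells differed in 352 of 10155 genes (3.47%), 104 higher and 248 lower. Of 5 B cell genes 4 were higher, Ms4a1 (6.73), Vpreb3 (6.27), Cd79a (5.62) and Ebf1 (3.71), each in 2 or 3 of 9 mice, and none could be tested with T, NK or B marker cells left out. The NeuMo genes Mpo (-0.95), Elane (-0.88), Prtn3 (-0.78) and Ctsg (-0.76) were lower, 4 of 4. Of the DCMo genes 4 of 5 were higher, and 2 of 5 without the marker cells. Of 19 interferon-gamma genes 6 were higher, led by Cxcl9 (3.36), Iigp1 (2.59), the MHC class II activator Ciita (2.30) and Cxcl10 (1.84), which were higher in 4, 3, 6 and 2 of 9 mice, and Irf8 (-0.46) was lower. The neutrophil gene Ngp was higher by 2.13, with 99.1% of its UMIs in Ltb cells from 1 mouse. None of the 12 lymphotoxin pathway genes was called, among them the receptor Ltbr (-0.00 ± 0.18, SE), and the called genes higher in all 9 mice were Gngt2 (1.07), Adcy7 (0.81), Sh3bp1 (0.55) and Ypel3 (0.45). Serpina3g was higher in Ltb cells by 2.87 ± 0.46 (SE, edgeR adjusted p = 1.01e-05). Only 9 CD3-negative female cells held both genes, and Serpina3g was not higher in all 9 mice.

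**Figure D4:**
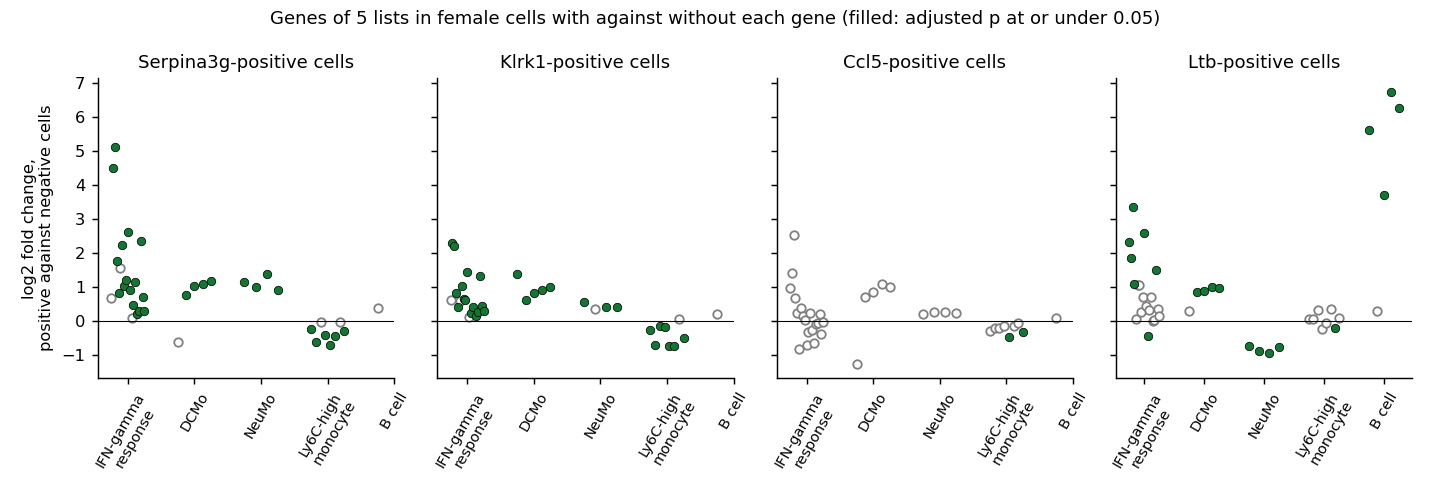
Log2 fold change (cells with over cells without the gene, CD3-negative female cells) of the genes of 5 lists, for Serpina3g, Klrk1, Ccl5 and Ltb; 1 point per gene, filled where the edgeR adjusted p was at or under 0.05. Interferon-gamma genes lie above 0 for Serpina3g (16 of 19 called higher) and Klrk1 (15 of 19), and none is called for Ccl5.

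Some genes of the same lists also changed with age. In CD3-negative cells of females 6 of 17 interferon-gamma genes were higher in old mice by edgeR, led by Ciita (2.19), Irf1 (0.67) and the peptide transporter Tap1 (0.66), with a list median of 0.56 beside -0.00 over all genes. Cxcl9 (1.62 ± 0.76, SE, edgeR adjusted p = 0.299), Cxcl10 (0.03 ± 0.41, edgeR adjusted p = 0.996) and Gbp2 (1.44 ± 0.41, edgeR adjusted p = 0.0708), which were among the highest in Serpina3g cells, were not called with age. Of 10 CCL5 receptors and other chemokines, 2 were higher, among them Cxcl16 (0.99), and the chemokines Ccl3 (-1.49) and Ccl4 (-1.0) were lower. None of 7 NKG2D genes and none of 12 lymphotoxin genes was called, 1 of 4 other serpins (Serpinb8, 0.76) and 1 of 9 proteases (Ctsc, 0.49) were higher, and so were 4 of 5 DCMo genes, led by H2-Eb1 (2.63), and 0 of 4 NeuMo genes. In males no gene of any list was called.

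Some cells held more than 1 of the 5 genes. Of the 6572 CD3-negative female cells, 5619 (85.5%) held none, 863 held 1, 75 held 2 and 15 held 3. Serpina3g and Serpina3f were found together in 18 cells, where the product of their shares within each mouse gave 3.12, and Serpina3g and Klrk1 in 40 cells against 22.6. Ccl5 and Klrk1 met in 21 cells against 13.3, Serpina3g and Ltb in 9 against 3.58, and Klrk1 and Ltb in 8 against 10.6. Ccl5 and Ltb, which shared the CD3-positive cells, met in 3 CD3-negative cells against 3.07. Deeper cells hold more of every gene, which these products do not take into account.

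The surface antibodies could be compared for Klrk1 and Ccl5, the genes with at least 5 cells in every female. As the log2 share of the 6 antibody counts, Klrk1 cells had more CD115, the receptor of macrophage colony-stimulating factor (0.26 ± 0.21, SD over 10 mice, higher in 9 of 10, two-sided exact sign-flip permutation adjusted p = 0.0151), and less CD11b (-0.18 ± 0.16, higher in 2 of 10, exact permutation adjusted p = 0.0187), where 55.5% and 85.5% of 9380 genes passed for the same antibodies. MHC-II was at 0.23 ± 0.31 (8 of 10, exact permutation adjusted p = 0.0598, or 0.0434 as the mean count per cell, beside 38.7% of genes), Ly6C at -0.01 (exact permutation adjusted p = 0.417, beside 70.8%), CD11c at 0.19 (beside 25.8%) and Flt3 at -0.04 (beside 40.5%). Passing was thus common among all genes for CD115 and CD11b. With T, NK or B marker cells left out CD115 had an exact permutation adjusted p of 0.0498, and CD11b was at -0.16 ± 0.29 with 0.158, a difference of like size with a wider spread over mice. Ccl5 passed for none of the 6, with its lowest exact permutation adjusted p at 0.126 for MHC-II (0.32 ± 0.52).

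Across the 10 females, after centring log2 CPM on each age group, the genes most like each member by Pearson's r over 10268 genes were Pick1 (0.969), Pnn (0.968) and Nfatc2 (0.934) for Serpina3g, Pms2 (0.948) and Irf1 (0.930) for Serpina3f, Myof (0.964), Il2rg (0.950) and Tchh (0.949) for Klrk1, Nfkbie (0.959), Zc3h7b (0.944) and Fem1b (0.937) for Ccl5, and Fyco1 (0.972), Pqlc3 (0.968) and Kctd2 (0.964) for Ltb. These are descriptions over mice that share a library, chosen as the highest of many genes. Irf1, an interferon-gamma-induced transcription factor, was also the most like AW112010 (0.967). Old female 1 stood far above the other old females for both Serpina3f (5.62 CPM) and AW112010 (387 CPM). The part of this 1 mouse in these correlations was not tested.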

How the data were processed

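Droplet libraries of sorted Ly6Chi bone marrow monocytes, 1 per sex, each pooled 10 hashtagged mice. The authors deposited raw UMI counts per gene, hashtag and surface antibody for each barcode as 10x matrices, made per the labels with Cell Ranger 4.0.0 and STAR 2.5.1 on mm10 with Ensembl genes, while the file headers carry another Cell Ranger version. Female cells were taken as HTODemux singlets (Seurat 5.3.0) with over 200 genes and under 5% mitochondrial UMIs, from 10433 barcodes with 2478 doublets and 942 negatives. Female singlets were given to the mouse of their leading hashtag by counts, which differed from the HTODemux call in 128 of the 6641 cells. HTODemux called 401 of the 1227 male barcodes doublets although 95.1% of their hashtag counts (median) lay on 1 hashtag, so all male cells were kept and given to their leading hashtag. The alternative with HTODemux singlets gave cells of both sexes to the mouse of the HTODemux call and kept 826 male cells.

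Cells with a UMI of Cd3d, Cd3e or Cd3g were set apart, and counts of the others were summed per mouse, 330586 to 18603842 UMIs. Sums were fitted with edgeR 4.0.16 (TMM, filterByExpr, quasi-likelihood, adjusted p at or under 0.05 over all genes), with DESeq2 1.42.0 as an alternative, in R 4.3.3. Cells with and without a gene were fitted with mouse as a term over mice with at least 5 positive cells, given at least 6 mice. Shares of cells were compared by exact two-sided permutation tests for genes in at least 10 cells, AW112010 classes needed 10 cells per mouse, and shares were repeated after thinning cells to 2000 or 5000 UMIs (Python 3.11.15, numpy 2.4.6, scipy 1.17.1, pandas 2.3.3). The statistics were tested on simulated data. Alternatives changed cell assignment, cells set apart, scaling, test, filter and mice. Named were the members, up to 4 genes per list and comparison by size of change, the 5 largest called genes higher in every mouse, and the 3 most like genes, of which a few are not reported here. Receptors of a member, genes given without a call (such as Cxcl9, Cxcl10 and Gbp2), and Lyz2 and Ly6c2 in the member cells, were chosen after their values were seen. Members and lists were chosen with earlier results of these data known. Replicates are separate mice.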

Additional observations from a re-analysis of the deposited data

Results flagged for a closer look

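Of 44 groups of 5 mice tested for a sample far from the others, 11 had one (share and CPM counted apart). The limit used gives about 1 in 20 for independent, normally distributed values. Shares and CPM from few UMIs need not be so distributed, and both come from the same mice, so the rate by chance here is not known. Old female 1 stood above the other old females with 32.0 CPM of Serpina3g (a gap of 0.857 of the group's range), with Serpina3f in 4.34% of cells (0.882) and at 5.62 CPM (0.942), and with 387 CPM of AW112010 (0.778). Old female 2 stood above the others with 5.37 CPM of Ccl5 (0.742). Among young females, young female 4 was highest for Serpina3g at 3.98 CPM (0.713), and young female 2 lowest for AW112010, found in 27.7% of its cells (0.857). Old male 2 was the only old male with Ccl5, in 2.59% of cells and at 12.2 CPM, from 3 cells that HTODemux called doublets, so that with HTODemux singlets no old male held Ccl5. Young male 2 was the only young male with Serpina3f, in 0.746% of cells and at 1.42 CPM, from 1 UMI in 1 cell. With every other mouse of the group at 0 the gap is the whole range (1) by construction, which holds for 4 of the 11.

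The female barcodes called doublets or negatives were left out of the comparisons, other than the alternative with a leading hashtag of at least 80%, which took 7159 female cells in place of 6641, and they also held the 5 genes. In the 2369 doublets, at a median of 18534 UMIs, Ccl5 was found in 8.44%, Serpina3g in 8.27%, Serpina3f in 1.69%, Klrk1 in 15.7% and Ltb in 6.63% of barcodes. In the 888 negatives, at a median of 1920 UMIs, Ccl5 was found in 6.64%, Serpina3g in 1.13%, Klrk1 in 2.36% and Ltb in 1.46%. In the CD3-negative cells used, at a median of 9561 UMIs, the shares were 2.42% for Ccl5, 2.85% for Serpina3g, 8.34% for Klrk1 and 1.95% for Ltb, and the differences were not tested.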

How the results depend on the processing

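Over 86 results and 919 values from alternatives, 813 were rated the same, 68 moved, 21 reversed, 8 gained and 9 lost the threshold. For tests, the same meant an unchanged direction and side of the threshold. For counts it meant a like size, and for AW112010 class differences a value within the spread over mice. Such a class difference could change sign and still be rated the same. In females that of Ltb went from 0.00816 to -0.0705 percentage points in the setting with HTODemux singlets. For females this setting kept the same cells and gave each to the mouse of its HTODemux call. Depth limits Serpina3f, Ccl5 and Ltb most, with few UMIs per mouse, and the males. The cause of the changes below was not tested, except that fewer mice, cells or UMIs enter by construction.

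The number of members whose share differed by age in females (2) was 1 with a leading hashtag of at least 80%, with at least 2 UMIs per cell and with cells thinned to 5000 UMIs (chosen after seeing the data), and 0 thinned to 2000, where the Serpina3f difference was -0.000265 and that of Ltb -0.0700 percentage points. Of all genes 36.1% passed upwards in females with all mice, 5.34% thinned to 5000 and 4.52% thinned to 2000 UMIs, and 16.9% in males. Leaving out each mouse gave 1 to 3 members in females and 0 to 2 in males (0 with all). The difference in CD3-positive share was -0.294 to 0.0659 percentage points in females and -0.306 to 0.231 in males, and -0.313 in males thinned to 2000. Members with a higher mean share in AW112010-positive cells (5) numbered 4 to 5 in each sex, beside 82.8% of genes in females and 67.9% in males with all mice. Antibody differences (2) numbered 2 to 3, or 1 without cells holding a T, NK or B cell marker.

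Female members called by edgeR (0) were 1 by DESeq2, beside 391 of all 10033 genes, and 1 without the filter on low counts, beside 401 of 16416. Male members were 1 without the filter, beside 105 of 13148 genes. Without the filter, genes called numbered 318 and 286 in AW112010-negative and -positive female cells, 144 for their difference, 105 in males (20 by DESeq2), 130 and 55 in the male classes, 36 for their difference and 6 for sex against age, which gave 1 without marker cells. Male AW112010-negative cells gave 0 with HTODemux singlets, and genes with Serpina3g numbered 285 without marker cells. Leaving out each mouse gave 197 to 523 genes in females (102 to 316 and 72 to 194 in the classes), 0 to 41 in males (0 to 211 and 0 to 2) and 1 to 4 for sex against age. Without old female 1 the genes with Serpina3g numbered 513, with Klrk1 1607, with Ltb 436 and with Ccl5 17, and Serpina3f with Ltb was called (3.46).

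Values that changed sign when a mouse was left out were the Ccl5 age difference in share (-0.280 to 0.337 percentage points) and log2 fold change (-0.10 to 0.36) in females, the Klrk1 log2 fold change (-0.0600 to 0.41), both genes in AW112010-positive female cells (Klrk1 -0.16 to 0.30, Ccl5 -0.51 to 0.0616), Klrk1 for sex against age (-0.57 to 0.57, and -0.18 with HTODemux singlets), and the AW112010 difference in share of Ltb (-0.253 to 0.210 in females, -0.0764 to 1.44 in males) and Serpina3f (-0.00678 to 0.213). Klrk1 in Ltb cells was 0.18 without marker cells. No paired analysis was possible because numbers within a group name mice and do not tie an old to a young mouse, while comparisons of cells within mice kept the mouse as a term.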
